A study of Mus musculus with 4 samples.

Results

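*Opcml*, *Ntm*, *Lsamp* and *Negr1* are 4 of the 32285 genes counted in scRNA-seq libraries of mouse fracture callus. They were taken as a family, because *Opcml* had a high ratio of RA to control callus at 7 days post fracture (dpf) in the mesenchymal cells, rank 2 of the 17031 genes compared there. That contrast therefore chose *Opcml*, and it is given here as a description. The question was which class of cells carries the higher level of *Opcml*, and whether the other genes of the family were found in the same cells.

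The genes encode OBCAM (*Opcml*), neurotrimin (*Ntm*), LSAMP (*Lsamp*) and NEGR1 (*Negr1*), which together with the product of *Iglon5* form the IgLON family. IgLONs are small adhesion proteins with immunoglobulin domains that are held on the outer face of the plasma membrane by a glycosylphosphatidylinositol (GPI) anchor and bind each other on the same or on neighbouring cells. They are best known from the nervous system, where they act in the outgrowth and bundling of axons and the formation of synapses. OPCML is also known as a protein that is lost in many tumours and that restrains receptor tyrosine kinases.

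The callus came from wild-type C57BL/6J mice, 3 months old, at 4 and 7 dpf. RA mice, a model of inflammatory arthritis, received injections of arthritogenic K/BxN serum, and control mice received vehicle. The labels give 4 mice per pool, and another description gives 3. Each of the 4 groups (control_4d, control_7d, RA_4d and RA_7d) is 1 library of such a pool, so no difference between groups has a replicate check, no test was made, and the 95% intervals below cover counting error only. Callus was scraped along the periosteal surface and digested with collagenase, and the libraries also held blood, vessel, muscle and nerve cells.

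After filtering of cells the libraries held 5470 (control_4d), 7676 (control_7d), 4110 (RA_4d) and 8223 cells (RA_7d), with median depths of 16093.5 to 17631.5 UMIs (unique molecular identifiers, 1 per captured transcript). Pairs of libraries shared 5 to 15 cell barcodes, at most 0.292% of the smaller library. Cells were clustered without the IgLON genes, and clusters were named from marker genes with the ending -like. The mesenchymal cells numbered 835, 2908, 702 and 3619 and fell into fibroblast precursor-like cells (led by *Pi16*, *Rorb* and *Sema3c*), fibroblast-like cells (*Cxcl14*, *Myoc*, *Abca8a*), committed mesenchymal progenitor-like cells (*Tnn*, *Tnc*), osteochondral progenitor-like cells (*Col2a1*, *Ibsp*) and cycling mesenchymal-like cells (*Cenpf*, *Mki67*). Tenocyte precursor-like, mural-like and Schwann-like cells were kept apart from them. A level is the sum of a gene's UMIs over the cells of a class in a library divided by all UMIs of those cells and given in CPM, the usual per-library scale of counts, with an exact Poisson interval. A ratio of levels has an exact interval conditional on the summed counts.

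*Opcml*, *Ntm*, *Lsamp* and *Negr1* are long and mostly intron, while *Iglon5* spans only 17.2 kb, of which exons make up 15.3%. In GRCm38, *Opcml* (ENSMUSG00000062257) lies on chromosome 9 from 27790775 to 28925410 on the + strand, and exons make up 1.28% of this span. *Ntm* (ENSMUSG00000059974) is its neighbour, from 28994750 to 29963141 on the opposite strand with a gap of 69.3 kb, and exons make up 0.834% of it. *Lsamp* (ENSMUSG00000061080) lies on chromosome 16 from 39984361 to 42181679, and *Negr1* (ENSMUSG00000040037) on chromosome 3 from 156561794 to 157316445. Counting of reads in introns is the default of the Cell Ranger version used (7.0.1), but whether it was kept is not given in the sources used here. Therefore, each gene's order of classes is read, and levels are not compared between genes. The promoters of the neighbours *Opcml* and *Ntm* are shown because these adjacent genes had unlike patterns over the callus cells. The *Opcml* window lies near the 5′ end of the gene's span, while both *Ntm* windows lie deep within the span of *Ntm*, at internal starts and not at its outermost 5′ end. All are RefSeq windows in GRCm38.p6 from 250 bases before to 50 after an annotated start, read 5′ to 3′ on the gene's strand, with each CG dinucleotide in capitals:

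Opcml, chr9:27791049-27791348, + strand: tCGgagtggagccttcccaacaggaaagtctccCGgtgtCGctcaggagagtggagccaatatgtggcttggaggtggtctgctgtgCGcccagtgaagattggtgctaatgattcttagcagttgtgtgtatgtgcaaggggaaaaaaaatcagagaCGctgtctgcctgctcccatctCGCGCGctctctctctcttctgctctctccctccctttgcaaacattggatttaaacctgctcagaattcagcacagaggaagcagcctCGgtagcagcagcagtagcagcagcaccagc

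Ntm, chr9:29412636-29412935, - strand: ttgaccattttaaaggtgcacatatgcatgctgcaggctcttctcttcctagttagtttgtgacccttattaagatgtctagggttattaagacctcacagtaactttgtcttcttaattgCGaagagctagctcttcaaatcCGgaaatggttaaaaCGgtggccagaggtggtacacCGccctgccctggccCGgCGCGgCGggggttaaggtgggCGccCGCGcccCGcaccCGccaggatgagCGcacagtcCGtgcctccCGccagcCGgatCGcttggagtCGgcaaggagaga

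Ntm, chr9:29413403-29413702, - strand: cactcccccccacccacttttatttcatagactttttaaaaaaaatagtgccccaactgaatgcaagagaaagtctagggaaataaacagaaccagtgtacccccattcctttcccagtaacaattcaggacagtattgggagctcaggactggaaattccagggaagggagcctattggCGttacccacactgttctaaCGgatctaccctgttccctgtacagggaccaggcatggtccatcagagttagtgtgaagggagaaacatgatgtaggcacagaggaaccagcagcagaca

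The *Opcml* window held 9 CG dinucleotides and the *Ntm* windows held 19 and 2, while the median over 32851 such windows of 27025 genes was 7. A search of both strands found the TATA box letters TATAAA in 13.6% of all windows and in none of these 3. The letters of an AP-1 site, TGACTCA, were in 5.20% of all windows and in none of the 3. The E-box CACGTG was in 7.15% of all windows and in none of the 3. The GC box GGGCGG, found in 35.7% of all windows, was in the *Ntm* window with 19 CG dinucleotides, 1 time, and not in the other two. None of these letter strings contains another. A match describes the letters of the window, and libraries read from the 3′ end do not show which start was used.

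In the mesenchymal cells as a whole, *Opcml* was at 24.0 CPM in control_4d (639 UMIs, 22.2 to 26.0), 9.48 CPM in control_7d (704 UMIs, 8.80 to 10.2), 26.7 CPM in RA_4d (586 UMIs, 24.6 to 29.0) and 69.6 CPM in RA_7d (6375 UMIs, 67.9 to 71.3). Thus, control_7d was the lowest and RA_7d the highest of the 4 libraries, and both 4 dpf libraries lay between them. The ratio of RA to control was 7.33 at 7 dpf (6.78 to 7.94), a log2 ratio of 2.75 with a pseudocount of 1 CPM. At 4 dpf it was 1.11 (0.992 to 1.24), not a detectable difference at this depth. With the mesenchymal classes weighted equally instead of by their UMIs, the log2 ratio at 7 dpf was 1.22. The high ratio at 7 dpf thus combined a lower level in control callus (0.395 times the control level at 4 dpf, 0.354 to 0.440) with a higher level in RA callus (2.60 times the RA level at 4 dpf, 2.39 to 2.84). These 4 ratios share libraries and are not independent of each other.

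Fibroblast precursor-like cells had the highest *Opcml* level of the classes when the 4 libraries were pooled, 96.0 CPM (93.4 to 98.6), and held 58.6% of all *Opcml* UMIs of the kept cells. This class carries *Pi16* and *Dpp4*, genes known from adventitial fibroblasts with progenitor features. By library the level was 46.6 CPM in control_4d (368 UMIs in 244 cells), 22.4 CPM in control_7d (330 UMIs in 584 cells), 56.7 CPM in RA_4d (230 UMIs in 126 cells) and 153 CPM in RA_7d (4373 UMIs in 1080 cells). The order of the libraries was that of the mesenchymal sum. At 7 dpf RA callus had 6.83 times the control level (6.11 to 7.66), and at 4 dpf 1.22 times (1.03 to 1.44). With every cell thinned to 4000 UMIs the log2 ratio at 4 dpf changed sign, from 0.28 to -0.23, so it has no firm direction. With cells assigned by their own marker UMIs the log2 ratio at 7 dpf was 1.60 in place of 2.72.

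**Figure D1:**
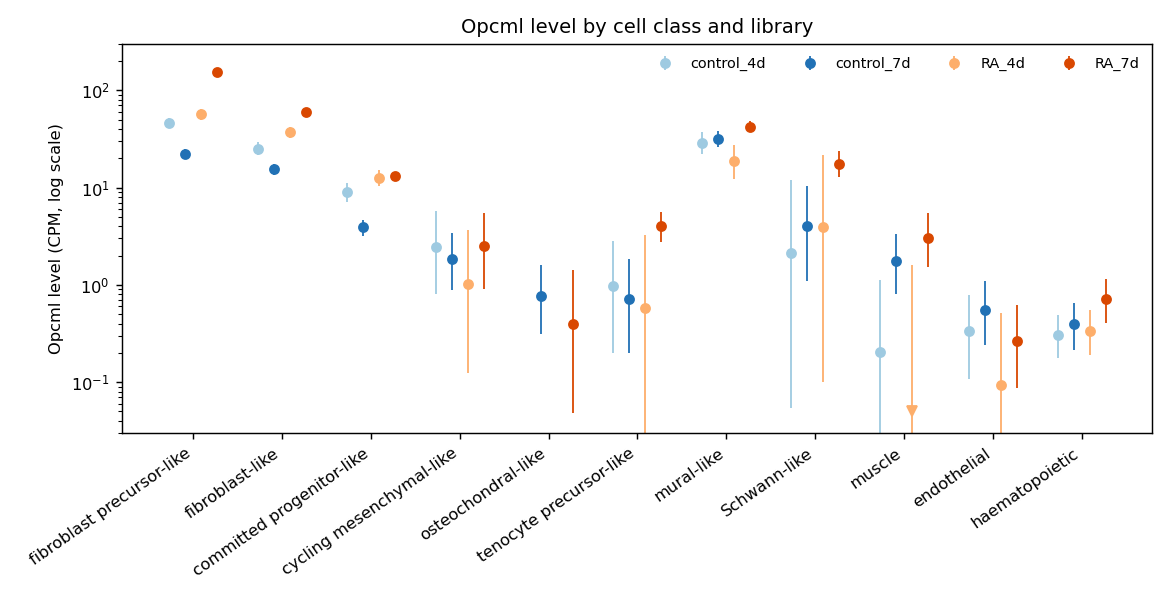
*Opcml* level (CPM, log axis) in each class and library, with exact 95% Poisson intervals that cover counting error only. A triangle marks a level of 0, and class sums of fewer than 20 cells are not drawn. RA_7d was highest in the fibroblast precursor-like class (153 CPM), while endothelial and haematopoietic cells stayed below 1 CPM in every library.

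Fibroblast-like cells came next, with 40.3 CPM over the 4 libraries (38.7 to 42.0) and 25.3% of all *Opcml* UMIs. Their levels were 25.2 CPM in control_4d, 15.4 CPM in control_7d, 36.9 CPM in RA_4d and 59.8 CPM in RA_7d, below the fibroblast precursor-like class in 4 of 4 libraries. RA over control callus gave a ratio of 3.89 at 7 dpf (3.40 to 4.47) and of 1.46 at 4 dpf (1.20 to 1.78). Clustering without integration lowered the log2 ratio at 7 dpf from 1.89 to 0.71.

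Committed mesenchymal progenitor-like cells, marked by the matrix genes *Tnn* and *Postn*, had low levels of 8.99 CPM in control_4d, 3.89 CPM in control_7d, 12.5 CPM in RA_4d and 13.1 CPM in RA_7d. At 7 dpf their RA level was 3.36 times the control level (2.72 to 4.18), but RA_7d and RA_4d did not differ beyond counting error (ratio 1.05, 0.845 to 1.30). The higher ratio in this class therefore came with a lower control level at 7 dpf, 0.433 times that at 4 dpf (0.323 to 0.583). Osteochondral progenitor-like cells, which make cartilage and bone matrix, had 7 *Opcml* UMIs in 329 cells of control_7d and 2 UMIs in 183 cells of RA_7d. Cycling mesenchymal-like cells had between 1.02 and 2.50 CPM in the 4 libraries.

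Mural-like cells, the pericytes and smooth muscle cells of vessels, were the third class with *Opcml* and followed another pattern. Their levels were 28.9 CPM in control_4d (60 UMIs), 31.7 CPM in control_7d (112 UMIs), 18.9 CPM in RA_4d (26 UMIs) and 42.5 CPM in RA_7d (243 UMIs). In control_7d this was above the level of the fibroblast precursor-like class, and below it in the other 3 libraries. Of the 112 UMIs of control_7d, 29 lay in 10 mural-like cells that had a *Pi16* UMI. The 232 mural-like cells without one were at 24.8 CPM (19.8 to 30.8), an interval that holds the fibroblast precursor-like level of 22.4 CPM. RA callus had 1.34 times the control level at 7 dpf (1.07 to 1.69), and at 4 dpf 0.655 times (0.397 to 1.05). Pooled over libraries, the mural-like level (34.7 CPM, 31.5 to 38.1) did not overlap that of the fibroblast-like class within counting error, but the order of these neighbours differed between libraries, and the mural-like level was the higher one in control_7d, the lower one in RA_4d and RA_7d, and not distinguishable in control_4d.

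Schwann-like cells, the glia of peripheral nerves, had little *Opcml*. They held 1 UMI in each 4 dpf library, 4 in control_7d and 43 in RA_7d, and the level at 7 dpf was 4.07 CPM in control callus (1.11 to 10.4) and 17.7 CPM in RA callus (12.8 to 23.8). The ratio of 4.34 had an interval of 1.58 to 16.7, and 183 cells stood against 66 cells. These cells held 0.542% of all *Opcml* UMIs. Tenocyte precursor-like cells were at 0.973, 0.724, 0.580 and 4.02 CPM (control_4d, control_7d, RA_4d and RA_7d), the last from 34 UMIs in 388 cells. Haematopoietic cells were at 0.305 to 0.713 CPM and endothelial cells at 0.0928 to 0.555 CPM, and these levels are taken as the background.

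The difference of 60.1 CPM between the mesenchymal cells of RA_7d and control_7d can be split exactly, since a class contributes its share of the UMIs times its level. Fibroblast precursor-like cells contributed 43.3 CPM, 72.0% of the difference, and fibroblast-like cells 14.4 CPM, 24.0% of it. Committed mesenchymal progenitor-like cells contributed 2.55 CPM, and the cycling and the osteochondral classes -0.07 CPM each. The fibroblast precursor-like share was between 59.0% and 78.0% in the 7 other ways of filtering, clustering or counting the cells. Over all kept cells the difference was 37.4 CPM, of which fibroblast precursor-like cells gave 25.6 CPM, fibroblast-like cells 8.63 CPM, mural-like cells 0.762 CPM and Schwann-like cells 0.246 CPM.

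**Figure D2:**
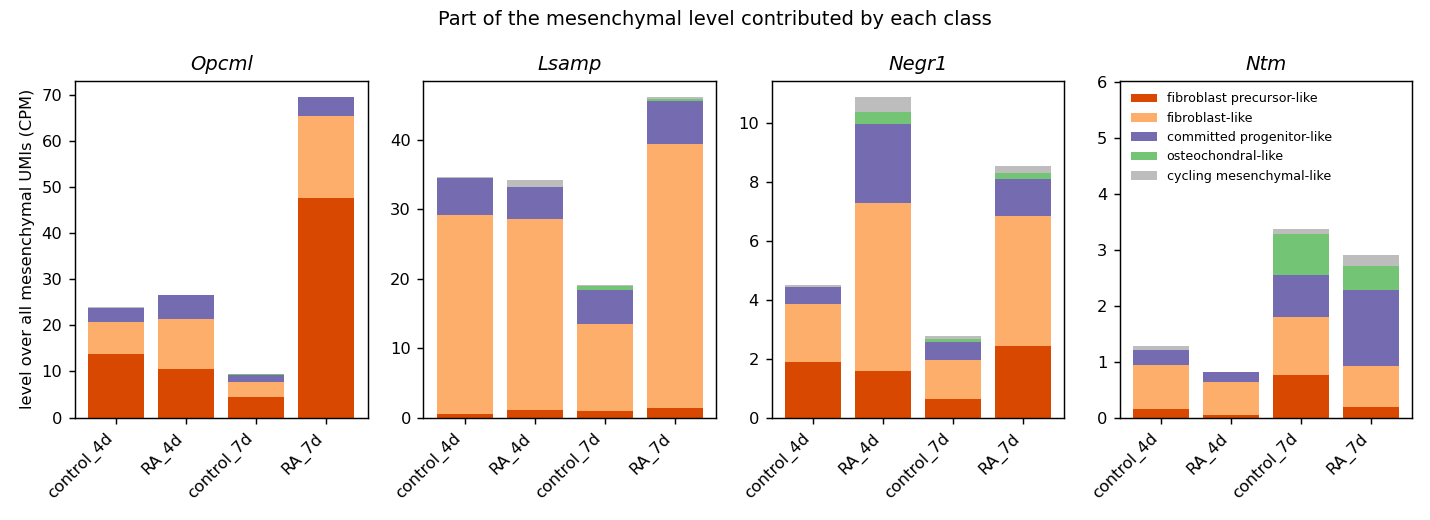
Contribution of the mesenchymal classes to the level of each IgLON gene over all mesenchymal UMIs (CPM), stacked by class for each library. The vertical axes differ between genes, and the *Opcml* column of RA_7d (69.6 CPM) is mostly fibroblast precursor-like, while the *Lsamp* columns are mostly fibroblast-like.

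Part of the difference lay in the mix of classes, because fibroblast precursor-like cells held 19.8% of the mesenchymal UMIs in control_7d and 31.2% in RA_7d, and fibroblast-like cells 21.3% and 29.5%. With the class mix of RA_7d and the class levels of control_7d, the mesenchymal level would be 12.8 CPM, compared with the measured 9.48 CPM. With the class mix of control_7d and the class levels of RA_7d it would be 48.5 CPM, compared with the measured 69.6 CPM. Thus, the levels within classes moved the sum more than the mix did. Both values depended on how the classes were drawn. Without integration they were 19.2 and 30.2 CPM, and with cells assigned by their own marker UMIs 23.0 and 32.9 CPM, so that the levels still moved the sum more, but by a smaller margin.

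*Opcml* was found in a part of the fibroblast precursor-like cells. With every cell thinned to 4000 UMIs, a UMI of *Opcml* was found in 11.1% (control_4d), 8.05% (control_7d), 14.3% (RA_4d) and 29.7% (RA_7d) of them, and without thinning in 32.8%, 17.0%, 37.3% and 54.1%. In haematopoietic cells the thinned shares were 0.0579% to 0.271%, with median depths at 7 dpf of 10799 and 11004 UMIs, compared with 24178 and 26532.5 UMIs in fibroblast precursor-like cells. The shares in fibroblast precursor-like cells are thus far above that background in each library. In fibroblast-like cells the thinned shares were 6.18%, 5.42%, 8.58% and 14.9%.

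The share of fibroblast precursor-like cells with 5 or more *Opcml* UMIs was 10.2% (control_4d, 25 cells), 3.94% (control_7d, 23 cells), 13.5% (RA_4d, 17 cells) and 26.9% (RA_7d, 290 cells). The highest cell of RA_7d had 61 UMIs, and that of control_7d had 23. The tenth of cells with the most UMIs held 87.9% of the class's *Opcml* UMIs in control_7d and 52.6% in RA_7d. These shares depend on the level, since the mean was 0.565 UMIs per cell in control_7d and 4.05 in RA_7d, so they are not compared. With 290 cells at 5 or more UMIs, the UMIs of RA_7d did not come from a few cells.

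**Figure D3:**
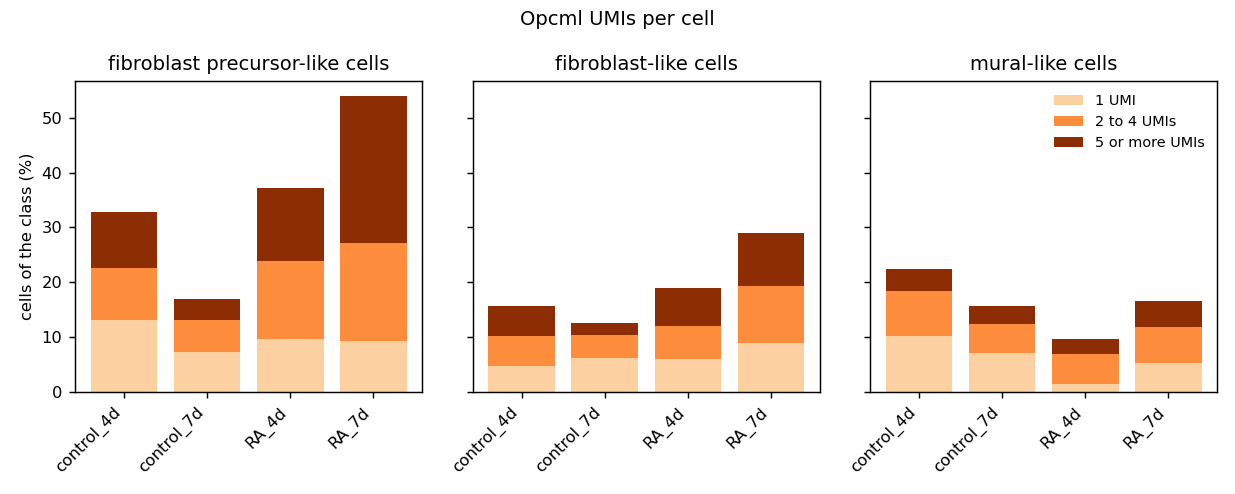
Share of cells (%) with 1, 2 to 4 and 5 or more *Opcml* UMIs in 3 classes of each library, without thinning of depth. In fibroblast precursor-like cells the group with 5 or more UMIs was 3.94% in control_7d and 26.9% in RA_7d.

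The composition of the fibroblast precursor-like class itself differed between libraries. Its marker *Pi16* was at 469 CPM in control_4d, 138 CPM in control_7d, 216 CPM in RA_4d and 539 CPM in RA_7d, and a *Pi16* UMI was found in 68.0%, 33.9%, 42.9% and 72.6% of its cells. The class was therefore divided into cells with and without a *Pi16* UMI. In cells with *Pi16*, *Opcml* was at 57.6 CPM in control_4d, 41.7 CPM in control_7d, 107 CPM in RA_4d and 178 CPM in RA_7d. In cells without it, *Opcml* was at 23.9, 12.9, 22.7 and 88.7 CPM. *Opcml* was thus higher in the cells with *Pi16* in 4 of 4 libraries, and RA_7d was the highest library in both groups of cells. Cells with *Pi16* had a ratio of RA to control of 4.27 at 7 dpf (3.70 to 4.94), and cells without it one of 6.87 (5.68 to 8.37), so the difference was present in both. At 4 dpf the ratio was 1.86 with *Pi16* (1.53 to 2.25) and 0.949 without it (0.648 to 1.39). The order of the libraries for *Pi16* was close to that for *Opcml* in this class, with only control_4d and RA_4d exchanged.

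**Figure D4:**
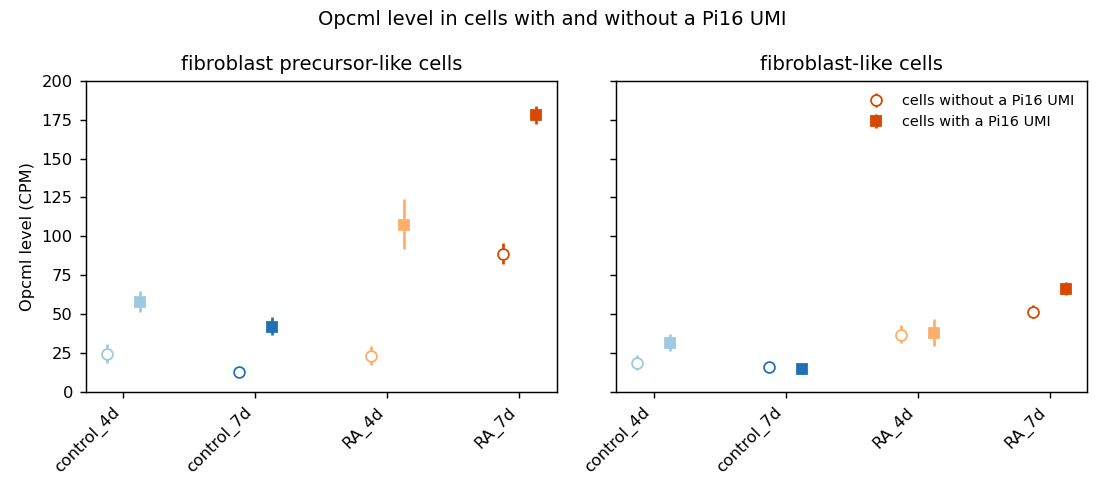
*Opcml* level (CPM) in cells with (filled squares) and without (open circles) a *Pi16* UMI in fibroblast precursor-like and fibroblast-like cells of each library, with exact 95% Poisson intervals. In the first class the cells with *Pi16* lie higher in all 4 libraries, up to 178 CPM in RA_7d.

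In fibroblast-like cells the division by *Pi16* separated *Opcml* less. The levels were 31.2, 14.3, 37.5 and 66.3 CPM with *Pi16*, and 18.1, 16.1, 36.7 and 51.4 CPM without it, in the order control_4d, control_7d, RA_4d and RA_7d. Within single cells of RA_7d thinned to 4000 UMIs, *Pi16* was found in 64.8% of the fibroblast precursor-like cells with *Opcml* (59.3 to 70.0%) and in 45.6% of those without (42.0 to 49.2%). For *Dpp4*, a surface peptidase and also a marker of the class, these shares were 49.5% and 39.8%. The order was the same in the other libraries, and in control_7d the intervals were apart for both genes. In control_4d they overlapped for both (*Pi16* 51.9% of 27 cells and 43.3% of 217, *Dpp4* 44.4% and 43.8%). In RA_4d they overlapped for *Dpp4* (22.2% of 18 cells and 14.8% of 108) and not for *Pi16*.

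At a finer resolution of 1 the clusters are called here by their leading genes, which were picked once their values were known. The cluster led by *Pi16*, *Rorb* and *Sema3c* had the highest *Opcml* level, 76.3 CPM in control_4d, 47.3 CPM in control_7d, 106 CPM in RA_4d and 249 CPM in RA_7d. A cluster led by *Dlk1* and *Il1rl1* had 21.2, 7.17, 22.8 and 65.2 CPM. Both had RA_7d as the highest and control_7d as the lowest library. Of the fibroblast-like clusters, one led by *Myoc* and *Abca8a* was at 30.6, 30.0, 52.6 and 79.2 CPM, and one led by *Mmp3* and *Cxcl14* was at 3.56, 5.31, 21.4 and 27.0 CPM. In each of the *Pi16*-, *Dlk1*-, *Myoc*- and *Mmp3*-led clusters both RA libraries were above both control libraries. In the *Dlk1*-led cluster the libraries at 4 dpf had overlapping intervals. Mural-like cells divided into a cluster led by *Myh11*, of smooth muscle, with 45.4, 63.5, 29.3 and 75.2 CPM of *Opcml*, and a cluster led by *Rgs5*, of pericytes, with 13.8, 11.2, 3.69 and 13.3 CPM.

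Of the 17031 genes compared at 7 dpf in the mesenchymal cells (at least 50 UMIs over both libraries), 1.71% had a log2 ratio of RA to control of at least 1, and 3 of the 4 IgLON genes did (*Opcml*, *Lsamp* and *Negr1*). At most -1 was reached by 1.26% of the genes and by 0 of the 4. Because *Opcml* was chosen by this contrast and the others as its relatives, nothing is read from the count. The median log2 ratio of all genes was -0.04. At 4 dpf 0.784% of the genes were at least 1, and of the 4 *Negr1* was (log2 ratio 1.11).

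Within the classes at 7 dpf the genes past this fold were not the same ones. In fibroblast precursor-like cells *Opcml* and *Negr1* had a log2 ratio of at least 1 (1.83% of all genes there), and *Ntm* one of at most -1 (2.24%). In fibroblast-like cells *Opcml*, *Lsamp* and *Negr1* were at least 1 (1.52%), and in mural-like cells *Lsamp* (0.937%), from 10 and 41 UMIs. In Schwann-like cells *Lsamp* was at most -1 (2.8%). Between 4 and 7 dpf the mesenchymal level of *Opcml* was past the fold downward in control callus (1.64% of all genes), and those of *Opcml* and *Ntm* upward in RA callus (1.99%). *Ntm* was also higher at 7 dpf in control callus, just short of the fold (log2 ratio 0.94, compared with 1.10 in RA callus).

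*Lsamp*, known as a marker of the limbic system in brain, was found mostly in the fibroblast-like cells in callus. This class held 63.7% of all *Lsamp* UMIs, with 104 CPM in control_4d (762 UMIs), 59.1 CPM in control_7d (933 UMIs), 92.2 CPM in RA_4d (602 UMIs) and 129 CPM in RA_7d (3483 UMIs). As with *Opcml*, control_7d was the lowest library and RA_7d the highest. RA callus had 2.18 times the control level in this class at 7 dpf (2.03 to 2.34), and 0.888 times at 4 dpf (0.796 to 0.989). The log2 ratio at 7 dpf was 1.11, but 0.39 without integration and 0.51 with cells assigned by their own marker UMIs, so its size depended on how the class was drawn.

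In fibroblast precursor-like cells, where *Opcml* was highest, *Lsamp* was at 1.52, 4.62, 6.17 and 4.41 CPM (control_4d, control_7d, RA_4d and RA_7d). The libraries at 7 dpf did not differ beyond counting error there (ratio 0.955, 0.706 to 1.30). Of the finer fibroblast-like clusters, that led by *Myoc* and *Abca8a* had the most *Lsamp*, 171, 128, 195 and 245 CPM, and that led by *Mmp3* had 59.1, 29.1, 31.0 and 55.5 CPM. Thus, both genes were found in the *Myoc*/*Abca8a* cluster. In single fibroblast-like cells of RA_7d at equal depth, *Lsamp* was found in 34.7% of the cells with *Opcml* (28.0 to 42.0%) and in 24.9% of those without (22.4 to 27.6%). The order was the same in control_4d (47.1% of 17 cells and 21.7% of 258) and control_7d (27.5% of 40 cells and 13.6% of 698). It was reversed in RA_4d (10.0% of 20 cells and 22.1% of 213). In control_4d, control_7d and RA_4d the intervals of the compared shares overlapped.

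Tenocyte precursor-like cells, marked by *Scx* and *Tnmd*, were the second class for *Lsamp*, with 35.01 CPM in control_4d, 74.9 CPM in control_7d, 12.8 CPM in RA_4d and 61.3 CPM in RA_7d. In control_7d this was above the level of the fibroblast-like class (59.1 CPM), and in each other library below it. Both 7 dpf libraries were above both 4 dpf libraries in the tenocyte precursor-like class. RA callus had 0.364 times the control level at 4 dpf (0.219 to 0.580), and 0.818 times at 7 dpf (0.718 to 0.933), but the first fell to a log2 ratio of -4.71 from -1.39 without integration, and the latter turned above 1 with the looser cell filter, without integration and with assignment by marker UMIs. Schwann-like cells had 53 *Lsamp* UMIs in 66 cells of control_7d and 16 UMIs in 183 cells of RA_7d. A single cell of control_7d held 19 of these UMIs.

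*Ntm*, the neighbour of *Opcml* on the chromosome, was spread over Schwann-like, mural-like and tenocyte precursor-like cells. In Schwann-like cells its level was 40.5 CPM in control_4d (19 UMIs), 71.2 CPM in control_7d (70 UMIs), 196 CPM in RA_4d (50 UMIs) and 81.3 CPM in RA_7d (198 UMIs). RA_4d was the highest but had 20 Schwann-like cells, of which 1 held 22 UMIs. At 7 dpf the libraries did not differ beyond counting error (ratio 1.14, 0.866 to 1.52). Mural-like levels were 30.8, 34.0, 29.8 and 42.7 CPM, with a ratio of RA to control of 1.26 at 7 dpf (1.01 to 1.58). Within these, the *Rgs5*-led cluster had more *Ntm* (46.0, 46.1, 33.2 and 69.0 CPM) than the *Myh11*-led one (14.1, 15.1, 28.1 and 13.3 CPM), the reverse of *Opcml*, in 4 of 4 libraries. In RA_4d the *Ntm* intervals of the clusters overlapped (18 UMIs in 26 cells and 23 UMIs in 46 cells).

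In tenocyte precursor-like cells *Ntm* was at 12.6 CPM in control_4d, 11.04 CPM in control_7d, 34.8 CPM in RA_4d and 23.4 CPM in RA_7d. Both RA libraries were above both control libraries there, with ratios of 2.75 at 4 dpf (1.81 to 4.23) and 2.12 at 7 dpf (1.58 to 2.87). The log2 ratio at 7 dpf fell from 1.02 to 0.18 without integration. In the mesenchymal cells *Ntm* was low, at 1.28, 3.37, 0.820 and 2.90 CPM. In fibroblast precursor-like cells it was at 3.87 CPM in control_7d (57 UMIs) and 0.631 CPM in RA_7d (18 UMIs), a ratio of 0.163 (0.0902 to 0.281) in the direction opposite to *Opcml*. The highest cell of control_7d held 11 of these UMIs. The size depended on how the class was drawn. At resolution 1 the *Pi16*-led cluster had 1.46 CPM (9 UMIs) in control_7d and 0.901 CPM (13 UMIs) in RA_7d, with overlapping intervals. The *Dlk1*-led cluster had 4.99 and 1.81 CPM. At equal depth 0 of 321 fibroblast precursor-like cells of RA_7d with *Opcml* had an *Ntm* UMI (exact upper limit 1.14%), compared with 0.264% of the 759 others.

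*Negr1*, a gene linked to body weight and neuronal growth, had its highest level in Schwann-like cells. It was at 55.4 CPM in control_4d (26 UMIs), 101 CPM in control_7d (99 UMIs), 74.5 CPM in RA_4d (19 UMIs) and 197 CPM in RA_7d (480 UMIs). At 7 dpf RA callus had 1.96 times the control level (1.58 to 2.46), and at 4 dpf 1.35 times (0.704 to 2.53), where the interval allows either direction. At equal depth, *Negr1* was found in 24.2% of the Schwann-like cells in control_7d and 43.2% in RA_7d (endothelial cells 0.108% and 0.239%), and the log2 ratio of the level decreased from 0.96 to 0.39. There were 66 such cells in control_7d (0.860% of the library) and 183 in RA_7d (2.23%).

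In the mesenchymal cells *Negr1* was at 4.51 CPM in control_4d, 2.78 CPM in control_7d, 10.9 CPM in RA_4d and 8.53 CPM in RA_7d. Both RA libraries were above both control libraries, with ratios of 2.41 at 4 dpf (1.93 to 3.03) and 3.07 at 7 dpf (2.63 to 3.60). At 4 dpf the ratios of *Opcml* and *Lsamp* were 1.11 and 0.988. The same order was found in fibroblast-like cells (7.22, 6.20, 19.1 and 15.03 CPM) and in tenocyte precursor-like cells (8.75, 5.61, 31.3 and 14.5 CPM). In fibroblast-like cells the log2 ratio at 7 dpf was 1.15, and 0.50 without integration. Levels in fibroblast precursor-like cells were 6.33, 3.26, 8.64 and 7.78 CPM.

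*Negr1* was also the IgLON gene with the largest share of its UMIs in haematopoietic cells, 16.1%, at 0.951, 3.30, 1.48 and 9.90 CPM. Of the finer haematopoietic clusters, a macrophage-like one led by the complement genes *C1qb* and *C1qa* was at 3.16, 6.47, 11.51 and 25.8 CPM, and one led by *Retnla* and MHC class II genes, not named, at 5.31, 15.04, 4.66 and 37.4 CPM. The other IgLON genes were at most 1.16 CPM in haematopoietic cells of any library.

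**Figure D5:**
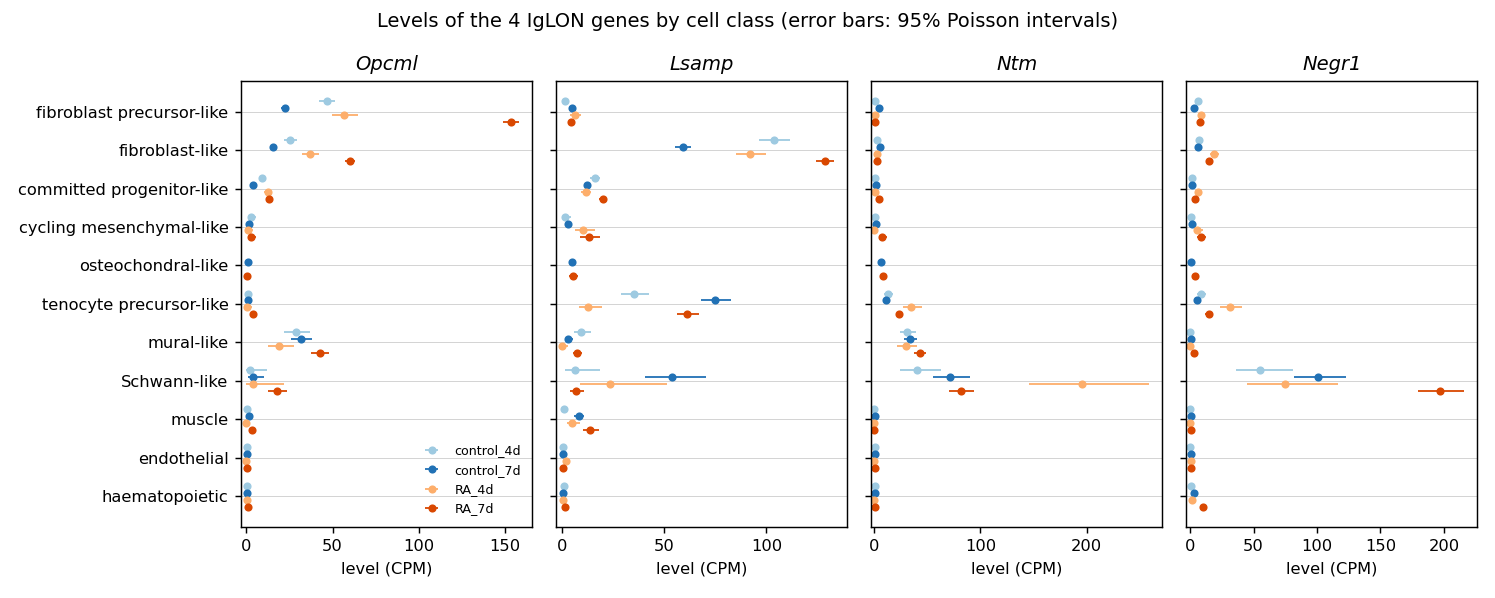
Levels (CPM) of the 4 IgLON genes in each class and library with exact 95% Poisson intervals, on axes that differ between genes. The highest levels lie in fibroblast precursor-like cells for *Opcml* (153 CPM), in fibroblast-like cells for *Lsamp* (129 CPM) and in Schwann-like cells for *Ntm* (196 CPM, 20 cells) and *Negr1* (197 CPM).

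The remaining IgLON gene, *Iglon5*, had few UMIs. Its level in the mesenchymal cells was 3.498, 3.54, 2.14 and 8.24 CPM (control_4d, control_7d, RA_4d and RA_7d). Like *Opcml* it was highest in RA_7d. Its highest class was the Schwann-like cells, with 19.3 CPM over the 4 libraries (80 UMIs), 9.15 CPM in control_7d and 27.5 CPM in RA_7d. Among the mesenchymal classes its level was highest in fibroblast precursor-like cells (7.34, 8.15, 3.21 and 13.4 CPM). Its ratio of RA to control in that class was 1.64 at 7 dpf (1.33 to 2.03), lower than that of *Opcml*.

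Since the family is known from nerve, markers of neurons and of the perineurium were summed in the class that carried most *Opcml*. In fibroblast precursor-like cells the 4 neuron markers (*Snap25*, *Elavl4*, *Stmn2* and *Tubb3*) were at 15.3 to 19.2 CPM, with 2 of 4 at 0 in each library. The 4 perineurial markers (*Cldn1*, *Slc2a1*, *Itgb4* and *Krt19*) were at 27.2, 32.6, 34.3 and 23.8 CPM. At 7 dpf most of this sum was *Slc2a1*, a glucose transporter, at 28.2 CPM in control_7d and 15.8 CPM in RA_7d. The others did not follow it, since *Krt19* was at 0.815 and 3.43 CPM, *Cldn1* at 1.495 and 2.59 CPM, and *Itgb4* at 2.04 and 1.93 CPM. *Opcml* itself was lower in Schwann-like than in fibroblast precursor-like cells in 4 of 4 libraries. A cluster of 312 cells led by *Apod*, *Tenm2* and *Cldn1* was left without a name, and 44.4%, 61.5%, 0% and 60.9% of its cells were called doublets. It had 4.56, 7.40, 8.96 and 24.4 CPM of *Opcml* and 45.6, 23.1, 31.4 and 57.0 CPM of *Lsamp*.

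Few UMIs were counted for 2 genes that lie in the span of *Opcml*. The antisense gene *Gm48091* had 2, 0, 4 and 19 UMIs in fibroblast precursor-like cells, and the gene *Gm15606* within an intron on the same strand had 0 UMIs in each library.

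Of 32 other adhesion genes of nerve and of the immunoglobulin superfamily, 25 were compared in the mesenchymal cells at 7 dpf. Among them 3 were past the fold upward and 1 downward, compared with 1.71% and 1.26% of all genes, and their median log2 ratio was 0.05 (-0.04 for all genes). The 3 at 1 or more were *Cadm3* (5.24 and 16.2 CPM in control_7d and RA_7d, log2 ratio 1.46), *Nfasc* (3.13 and 8.39 CPM, 1.19) and *Cadm2* (2.10 and 5.41 CPM, 1.05), which encode nectin-like and axonal adhesion proteins. The 1 at -1 or less was *Sdk2* (41.3 and 16.1 CPM, -1.30), and *Ncam1*, the neural cell adhesion molecule, lay just short of it (146 and 72.8 CPM). Among fibroblast precursor-like cells, 18 were compared with a median of -0.11 (-0.08 for all genes), and 1 was past the fold upward and 3 downward, where all genes had 1.83% and 2.24%. *Cadm3* was the one past it upward (15.4 and 36.5 CPM), and *Ncam1* (72.4 and 24.5 CPM) and *Sdk2* (5.98 and 1.82 CPM) were among those past it downward.

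Of the 6 receptor tyrosine kinases that OPCML is known to bind or restrain in tumour cells, 0 were past the fold upward in the mesenchymal cells at 7 dpf and 1 downward, *Fgfr3* (27.3 CPM in control_7d and 11.48 CPM in RA_7d, log2 ratio -1.18), beside 1.71% and 1.26% of all genes. *Fgfr1* was at 454 and 604 CPM, *Axl* at 107 and 174 CPM (log2 ratio 0.70), *Epha2* at 7.01 and 4.11 CPM, *Erbb2* at 8.60 and 7.48 CPM, and *Erbb4* at 0.728 and 0.0546 CPM. The median log2 ratio of the 6 was -0.41. In fibroblast precursor-like cells 4 were compared and 0 were past the fold in either direction, with *Axl* at 229 and 290 CPM and *Fgfr1* at 492 and 640 CPM. Their median log2 ratio there was -0.009, and in fibroblast-like cells the median of the 5 compared was -0.006. The lower median of the mesenchymal sum was thus not seen within these classes. *Fgfr3* was not among the 4 compared in fibroblast precursor-like cells, since it had fewer than 50 UMIs over both libraries in that class.

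IgLONs depend on the genes that make the GPI anchor and attach it to proteins. Of 27 such genes 26 were compared in the mesenchymal cells at 7 dpf, and their median log2 ratio was -0.08. In either direction 0 were past the fold, which is near the 1.71% and 1.26% of all genes for a list of this size, and nothing is read from it. The largest log2 ratios were those of *Gpaa1* (-0.39), *Pigw* (-0.38) and *Dpm3* (-0.37). Their median in fibroblast precursor-like cells was -0.11, again with 0 of 26 past the fold.

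The genes most like *Opcml* were sought over 42 sums of a class and a library with at least 50 cells, among 7087 genes with at least 50 CPM in at least 1 sum, by Pearson's r of log2(CPM + 1). These points share libraries and depth, so r is a description. The 10 highest were *C1qtnf7* (r = 0.86), *Galnt16* (0.86), *Lgi2* (0.85), *Phlda1* (0.85), *Smim1* (0.82), *Ntrk2* (0.82), *C2* (0.81), *Ebf2* (0.81), *Adcy5* (0.81) and *Clasp2* (0.80). *Opcml* was chosen by its ratio of RA to control at 7 dpf, so nothing is read from how these 10 genes compare with it there. None of them had as large a ratio of RA to control in fibroblast precursor-like cells at 7 dpf as *Opcml*. *Ntrk2*, a neurotrophin receptor, had 6.12 CPM in control_7d and 22.9 CPM in RA_7d there, *C1qtnf7*, which encodes a secreted C1q-like protein, 29.8 and 50.1 CPM, and *Ebf2*, a transcription factor of mesenchymal precursors, 258 and 289 CPM. The other IgLON genes were less like *Opcml*, with r = 0.29 for *Ntm*, 0.37 for *Lsamp* and 0.33 for *Negr1*, while *Lsamp* and *Negr1* had r = 0.56.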

How the data were processed

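According to the submitters' processing notes, Cell Ranger 7.0.1 and the mm10 genome were used. The values deposited for each of 4 libraries are UMI counts, not normalized, of genes in the barcodes called as cells (34038 in all). Replicates were pooled before the library was made. This version of Cell Ranger counts intronic reads by default, and whether that was changed is not given in the sources used here. The counts were used without rounding or scaling.

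Cells with 4000 to 50000 UMIs, 2000 to 7000 features and at most 8% mitochondrial UMIs were kept (25479 cells, 490126591 UMIs). They were integrated and clustered in Seurat 5.3.0 (R 4.3.3) with 2000 variable genes less the IgLON genes among them, 30 dimensions of canonical correlation, 15 principal components and a resolution of 0.5. A cluster took the name with the highest marker score (at least 1, a lead of 0.35 and 3 detected markers), with thresholds chosen in view of the clusters. The cell names are rebuilt, and need not match those of the paper. Doublets were called by Scrublet in scanpy 1.11.5 (614 cells, 2.41%) and left in. In RA_4d it called 1 of 4110 cells, so it has not worked there.

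UMIs were summed per class and library with pandas 2.3.3 and numpy 2.4.6 under Python 3.11.15. Intervals came from scipy 1.17.1 and plots from matplotlib 3.10.9. Log2 ratios have a pseudocount of 1 CPM and are given over genes with at least 50 UMIs in both libraries together. Past the fold means a log2 ratio of at least 1 or at most -1. No p-value was computed, since each group has 1 library. A count of 0 allows up to 3 counts. PCR and pooling add error that the intervals do not cover. The sums and the split by class were tested on simulated data.

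The members, the marker lists, the gene lists and the alternatives were chosen with earlier results of these data known. Named genes are the IgLON genes, class markers, members of 3 lists past the fold or with the 3 largest log2 ratios, and the 10 genes most like *Opcml*. Others in the lists of nerve adhesion, kinase and GPI anchor genes named here and the genes that lead clusters were chosen after their values were seen. Gene spans are from GENCODE M21 and promoters from RefSeq. The alternatives were a looser cell filter (1000 UMIs, 500 features, 15% mitochondrial), no integration, resolution 1, doublets left out, classes from marker UMIs and tenocyte precursor-like cells included. Further ones were thinning of cells to 4000 UMIs, TMM scaling, a pseudocount of 10 CPM, the mean of the class log2 ratios and genes with at least 10 UMIs. Some marker and list genes are not reported here.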

Additional observations from a re-analysis of the deposited data

Results flagged for a closer look

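From 4 to 7 dpf, 4 levels went in opposite directions in RA and in control callus, each beyond counting error. Each direction rests on 1 library per time point, and the difference between the directions was not tested. *Opcml* was chosen by its ratio of RA to control at 7 dpf, and that choice favours these directions. Nothing is therefore read from them for *Opcml*, and the share of all genes with opposite directions is not given here. The level of *Opcml* in fibroblast precursor-like cells at 7 dpf was 2.70 times that at 4 dpf in RA callus and 0.481 times in control callus. In fibroblast-like cells the ratios of *Opcml* were 1.62 and 0.610. The lower control level at 7 dpf was not seen in the finer fibroblast-like clusters at resolution 1. The *Myoc*-led cluster had 30.6 and 30.0 CPM in control_4d and control_7d, and the *Mmp3*-led one 3.56 and 5.31 CPM, with overlapping intervals. The first had 138 and 275 cells there, and the second, with less *Opcml*, 128 and 499. Whether this mix accounts for the ratio of 0.610 was not tested. *Lsamp* in fibroblast-like cells had ratios of 1.40 in RA callus and 0.569 in control callus, and in committed mesenchymal progenitor-like cells of 1.73 and 0.770.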

How the results depend on the processing

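The log2 ratio of *Opcml* at 7 dpf in the mesenchymal cells was 2.75 and lay between 2.68 and 2.81 with the looser cell filter, no integration, resolution 1, doublets left out, classes from marker UMIs, tenocyte precursor-like cells included and TMM scaling. It was 2.39 with cells thinned and 2.03 with a pseudocount of 10 CPM, and the mean of the class log2 ratios was 1.22. The share of the difference carried by fibroblast precursor-like cells was 72.0%, and became 78.0% without integration, 59.0% at resolution 1, 66.2% with classes from marker UMIs and 69.6% with cells thinned. Within fibroblast precursor-like cells the log2 ratio of *Opcml* at 7 dpf was 2.72, and the lowest alternative was 1.60, with classes from marker UMIs. Directions turned in 5 cases: *Opcml* at 4 dpf in fibroblast precursor-like cells with cells thinned (-0.23), *Opcml* at 4 dpf in committed mesenchymal progenitor-like cells at resolution 1 (-0.087), and *Lsamp* at 7 dpf in tenocyte precursor-like cells with the looser cell filter (0.25), without integration (0.078) and with classes from marker UMIs (0.032). Of 266 alternative values of 41 results, 197 moved by less than the counting error, and 64 moved by more in the same direction or without a clear one. Except where the pseudocount or the mean over classes set the value, the cause was not tested. No paired analysis was possible because each group has 1 library, and no library could be left out. Levels of few UMIs, as in Schwann-like cells at 4 dpf (20 and 29 cells), are limited by depth.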
